A study of Mus musculus with 18 samples.

Results

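The 10 genes described here are 7 matrix metalloproteinase (Mmp) genes, Mmp2, Mmp3, Mmp9, Mmp10, Mmp12, Mmp13 and Mmp14, and 3 genes of their tissue inhibitors (Timp), Timp1, Timp2 and Timp3, out of 23951 genes measured by RNA-seq in sorted mouse epidermal cells. They were chosen by gene symbol with the FPKM values of these same libraries already known. Among these were large and opposite differences from control mice in hair follicle stem cells and basal keratinocytes. Their levels, differences and calls at a p threshold are therefore given as a description and not as a test. FPKM (fragments per kilobase of transcript, relative to the reads of the library) is a level normalized for transcript length, so levels of different genes can be set side by side. Of the 10 genes, 9 reached 1 FPKM in at least 3 of the 18 libraries, and Mmp12 did not. Mmp9, Mmp10 and Mmp13 stayed below 1 FPKM in every control stem cell library, and they passed this filter through other groups. Mmp10 was also below 1 FPKM in every library of mutant cells.

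The libraries came from ear epidermis of 6 mice at day 7 after 4 daily injections of 2 mg tamoxifen, given at 8 weeks of age to control and mutant mice alike. DKO* mice (814, 815 and 817) carried floxed JunB and floxed c-Jun alleles and a tamoxifen-inducible Cre driven by the K5 promoter of basal epidermal cells, and they develop a psoriasis-like disease. Control mice (Co, 810, 825 and 828) carried the K5 Cre and were wild-type or heterozygous for JunB and c-Jun. All mice carried the mT/mG reporter, which turns from Tomato to GFP where Cre was active, and were males and females of a mixed background. CD49f-high cells were sorted as CD34+ bulge hair follicle stem cells (HF-SC) or as basal keratinocytes (b-KC). In DKO* mice each type was divided into mutant GFP and non-mutant Tom cells, which gave 6 groups of 3 mice, and the same 3 mice supplied all 4 DKO* groups. Non-mutant Tom cells shared the skin of the mutant cells, so Tom against Co compares cells of diseased and control skin, and the colour of the Co cells is not given in the sources used here.

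Mmps are zinc proteases that cut collagens, laminins, proteoglycans and other proteins around cells, and most are secreted as inactive precursors that other proteases activate. Timps bind active Mmps and block them, while Timp2 also brings the Mmp2 precursor to Mmp14 at the cell surface for activation. In skin, Mmps are known from wound healing, hair follicle remodelling and inflammation, and Mmp3 and Mmp13 are textbook targets of AP-1, the dimeric transcription factor that c-Jun and JunB are part of.

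A run of 10 Mmp genes, among them the members Mmp13, Mmp12, Mmp3 and Mmp10, lies in 427 kb of chromosome 9 (7272514 to 7699585, NCBIM37). Mmp2 lies on chromosome 8 (95351227 to 95377316), Mmp9 on chromosome 2 (164766280 to 164781350), Mmp14 on chromosome 14 (55050441 to 55060095), Timp1 on chromosome X (20447292 to 20451861), Timp2 on chromosome 11 (118162383 to 118217054) and Timp3 on chromosome 10 (85763117 to 85812251). Promoter windows from 250 bases before to 50 bases after the annotated start were held by RefSeq (GRCm38.p6) for 8 of the 10 members, Mmp2 and Mmp9 not among them. The AP-1 motif TGANTCA, searched on both strands, stood in the windows of the 4 members of the chromosome 9 cluster, and it was in none of the windows of Mmp14, Timp1, Timp2 and Timp3. Of all 32851 windows in the table, 7.81% held the motif, as did 5.40% of the 12097 windows of genes that passed the filter. The 100 bases before the start are printed because the 4 cluster genes share this feature while their levels differed, with the motif in capitals.
Mmp13, chr9:7272414-7272513, plus strand: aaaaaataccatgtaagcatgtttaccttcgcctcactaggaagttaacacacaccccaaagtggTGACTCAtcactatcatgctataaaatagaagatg
Mmp3, chr9:7445722-7445821, plus strand: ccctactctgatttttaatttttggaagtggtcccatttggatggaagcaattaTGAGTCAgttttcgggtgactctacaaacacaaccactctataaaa
Mmp10, chr9:7502242-7502341, plus strand: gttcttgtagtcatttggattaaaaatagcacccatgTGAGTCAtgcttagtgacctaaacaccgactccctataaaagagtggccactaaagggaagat
Mmp12, chr9:7347274-7347373, plus strand: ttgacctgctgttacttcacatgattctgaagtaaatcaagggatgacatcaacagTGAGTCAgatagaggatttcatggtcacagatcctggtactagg

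The motif began at -35 in Mmp13, -46 in Mmp3, -63 in Mmp10 and -44 in Mmp12, counted from the first base before the annotated start as -1. Mmp12 has a second annotated start, whose window held no match. TATAAA, searched on both strands and found in 13.6% of all windows, stood in the same 4 windows at -16, -7, -29 and 5 and did not overlap TGANTCA there. A match is a description of the letters and was not tested as a binding site.

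The depth implied by the steps between low FPKM values was 16540000 to 26300000 reads per library, at which 3 reads on a 1 kb transcript are worth 0.114 to 0.181 FPKM. Jun, the targeted c-Jun gene, averaged 983 and 952 FPKM in HF-SC and b-KC of Co, 62.8 and 49.6 in the GFP fractions and 418 and 264 in the Tom fractions. The corresponding Junb means were 447 and 749, 62.5 and 59.6, and 310.4 and 322 FPKM. Cd34 had 639.8 to 889 FPKM in HF-SC Co, 161 to 228 in HF-SC GFP, 259.6 to 319 in HF-SC Tom and at most 2.53 in every b-KC library. Of the 6 bulge markers, 5 were below Co in every library of mutant and of non-mutant HF-SC, and 5 likewise in each b-KC fraction. Keratins Krt15 and Krt14 are listed at 0 in 1 HF-SC Co library and in 3 b-KC libraries of DKO* mice and at high levels in the others, so a value of 0 can be a failed estimate. The 12 endothelial markers summed to 60.4 to 99.2 FPKM in HF-SC Co, 1.89 to 35.9 in HF-SC GFP and 492 to 1594 in HF-SC Tom, and all 12 were higher in every HF-SC Tom library than in every HF-SC Co library. The b-KC libraries had an endothelial sum of at most 11.7 FPKM. The 8 fibroblast markers summed to 194 to 245 FPKM in HF-SC Co, 44.6 to 145 in HF-SC GFP, 75.2 to 157 in HF-SC Tom and at most 9.47 in b-KC. Of these 8, 2 were below Co in every HF-SC GFP library and 2 in every HF-SC Tom library. Col6a1 averaged 148, 20.6 and 40.6 FPKM in HF-SC Co, GFP and Tom. Dcn and Lum went the other way, with means of 28.3, 32.9 and 46.5 and of 3.95, 5.65 and 7.74 FPKM. The part of these markers in the levels below was not tested. Fewer cells of a type and less RNA per cell cannot be told apart in these libraries.

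Mmp13, the main collagenase of the mouse, was almost silent in control stem cells and abundant in both stem cell fractions of diseased skin. Control HF-SC held 0.182, 0.380 and 0.199 FPKM (mice 810, 825 and 828, the order kept below). Mutant HF-SC held 79.0, 93.0 and 53.9 FPKM (mice 814, 815 and 817, likewise), and non-mutant HF-SC held 32.8, 10.3 and 54.3 FPKM. Every DKO* stem cell library was thus above every control stem cell library, and the GFP and Tom fractions overlapped. The ratio of mean FPKM to Co was 296 in HF-SC GFP and 128 in HF-SC Tom, and the latter was 84.9 without mouse 817. On the log2(FPKM + 1) scale the differences were 5.90 (SE 0.49) and 4.46 (SE 0.49), which understates the change because the added 1 exceeds the control level. Control b-KC held 4.82, 2.26 and 2.69 FPKM, mutant b-KC 6.07, 5.48 and 1.35, and non-mutant b-KC 9.21, 6.35 and 4.63. All 3 b-KC groups overlapped, and b-KC Co exceeded HF-SC Co by a ratio of 12.8, which was 8.55 without mouse 810 and 19.7 without mouse 825. The order of the group means ran from HF-SC GFP over HF-SC Tom, b-KC Tom, b-KC GFP and b-KC Co to HF-SC Co, and only the steps below HF-SC Tom and above HF-SC Co separated neighbours without overlap.

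**Figure D1:**
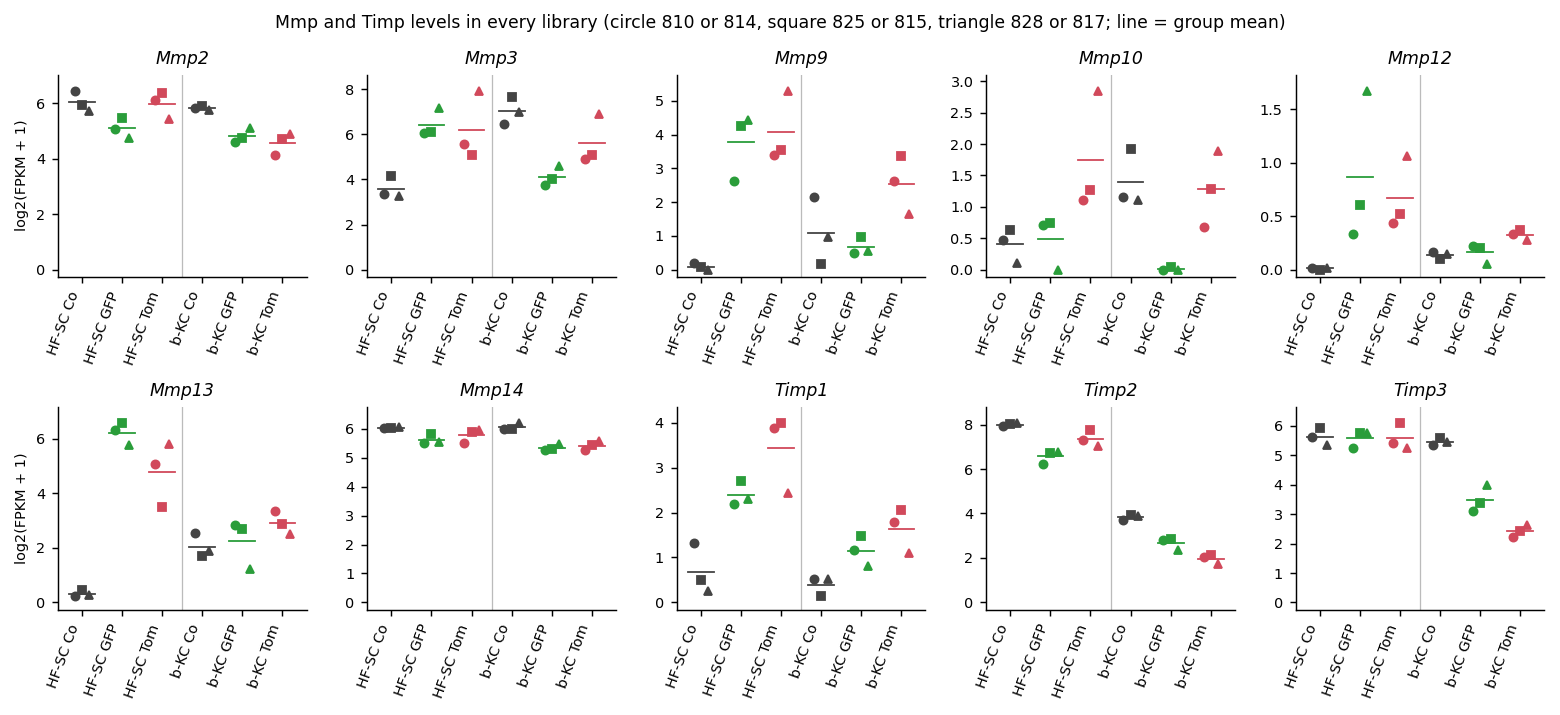
Levels of the 10 genes as log2(FPKM + 1) on the vertical axis in each of the 6 groups on the horizontal axis, with 1 symbol per mouse (circle 810 or 814, square 825 or 815, triangle 828 or 817) and a line at the group mean. Mmp13 and Mmp9 sit near 0 in the 3 HF-SC Co libraries and higher in all 6 HF-SC libraries of DKO* mice, while Mmp3 is high in b-KC Co and low in b-KC GFP.

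Mmp3 (stromelysin-1), which cuts proteoglycans and laminin and activates other Mmp precursors, differed from Co in opposite directions in the 2 cell types. Control HF-SC held 9.13, 16.7 and 8.53 FPKM, mutant HF-SC 65.0, 67.3 and 141, and non-mutant HF-SC 46.5, 32.8 and 243. Both DKO* stem cell fractions lay above Co without overlap, and the library of mouse 817 was the highest in each. The ratio of means to Co was 7.93 in HF-SC GFP and 9.37 in HF-SC Tom, the latter 3.46 without mouse 817. In b-KC the Co libraries had 86.5, 197 and 127 FPKM, the GFP libraries 12.4, 15.1 and 22.8 and the Tom libraries 28.7, 32.6 and 116. Every mutant b-KC library was below every control library, and the Tom library of mouse 817 lay within the Co range. Mean Mmp3 in b-KC Co was 8.18 times that in b-KC GFP and 2.31 times that in b-KC Tom, and without mouse 817 the latter was 4.47. The log2 difference from Co was 2.85 in HF-SC GFP and -2.92 in b-KC GFP (SE 0.64 each), and 2.61 in HF-SC Tom and -1.42 in b-KC Tom (SE 0.64 each). Among controls, b-KC exceeded HF-SC by a ratio of 11.9, so Mmp3 had the highest mean of the 7 Mmps in b-KC Co and stood below Mmp2 and Mmp14 in HF-SC Co.

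Mmp10 (stromelysin-2), a close relative of Mmp3, stayed low throughout. Control HF-SC held 0.394, 0.556 and 0.0710 FPKM, mutant HF-SC 0.646, 0.670 and a listed 0, and non-mutant HF-SC 1.15, 1.40 and 6.22. Only the Tom stem cells were above Co without overlap, at a log2 difference of 1.34 (SE 0.40) that was 0.78 without mouse 817. The b-KC Co libraries had 1.24, 2.80 and 1.16 FPKM, the b-KC Tom libraries 0.599, 1.43 and 2.71, and the b-KC GFP libraries were listed at 0, 0.0288 and 0. A count of 3 reads on Mmp10 is worth 0.0663 to 0.105 FPKM, so no mutant b-KC library rose above that floor, while every Co and Tom library of b-KC did. Mutant b-KC were thus low for both stromelysins, with non-mutant b-KC of the same mice above them in every library.

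Mmp9 (gelatinase B), which cuts denatured collagen and basement membrane collagen, was near the limit of detection in control stem cells. The HF-SC Co libraries had 0.154 and 0.0506 FPKM and a listed 0, beside 0.0359 to 0.0571 FPKM for 3 reads on this gene. HF-SC GFP had 5.17, 18.2 and 20.7 FPKM, and HF-SC Tom had 9.47, 10.7 and 38.4. Both DKO* fractions lay above Co without overlap and overlapped each other, with log2 differences from Co of 3.68 and 3.98 (SE 0.59 each) that became 6.33 and 6.66 with 0.1 in place of 1 as the pseudocount. Control b-KC held 3.47, 0.125 and 0.941 FPKM, mutant b-KC 0.414, 0.943 and 0.459, and non-mutant b-KC 5.22, 9.33 and 2.13. Neither b-KC fraction was apart from Co, and every Tom library was above every GFP library.

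Mmp2 (gelatinase A), a broadly expressed matrix protease, held at least 16.6 FPKM in every library. Control HF-SC had 87.0, 60.7 and 52.0 FPKM, mutant HF-SC 32.6, 43.9 and 26.2, and non-mutant HF-SC 68.4, 82.1 and 42.6. Only the mutant stem cells were below Co without overlap, by a log2 difference of -0.94 (SE 0.26), against -0.06 in HF-SC Tom. Control b-KC had 56.2, 59.3 and 53.3 FPKM, mutant b-KC 23.4, 26.0 and 33.4, and non-mutant b-KC 16.6, 25.3 and 29.0. Both b-KC fractions lay below Co without overlap, by log2 differences of -1.02 and -1.25 (SE 0.26 each).

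Mmp14, the membrane-bound protease that activates the Mmp2 precursor, stayed between 37.3 and 71.4 FPKM in all 18 libraries. HF-SC Co had 63.4, 63.4 and 66.0 FPKM, HF-SC GFP 44.4, 55.5 and 45.6, and HF-SC Tom 44.0, 58.7 and 60.9. b-KC Co had 61.8, 62.9 and 71.4 FPKM, b-KC GFP 37.7, 38.0 and 43.0, and b-KC Tom 37.3, 42.0 and 46.1. All 4 DKO* groups lay below their Co without overlap, by log2 differences of -0.41 for mutant and -0.25 for non-mutant HF-SC and of -0.71 and -0.64 for mutant and non-mutant b-KC (SE 0.13 each). The difference between HF-SC Co and b-KC Co was -0.02 and turned to 0.25 when libraries were rescaled by their upper quartile, a step that moved the median of all genes in this comparison from -0.06 to 0.17.

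Mmp12 (macrophage elastase) was at the limit of detection in control stem cells. HF-SC Co had 0.0135 FPKM, a listed 0 and 0.0114 FPKM, all below the 0.0255 to 0.0405 FPKM that 3 reads are worth. HF-SC GFP had 0.261, 0.520 and 2.19 FPKM and HF-SC Tom 0.352, 0.432 and 1.09, above Co in every library and highest in mouse 817. Control b-KC held 0.0735 to 0.119 FPKM, above that floor and above every HF-SC Co library, and the 9 b-KC libraries spanned 0.0391 to 0.295. Mmp12 overlaps Mmp1b on the opposite strand, and the libraries carry no strand, so reads where the genes overlap cannot be told apart. Of the markers listed for macrophages and Langerhans cells, the 8 in the table summed to 8.93 to 13.1 FPKM in HF-SC Co, 117 to 151 in HF-SC GFP and 98.1 to 197 in HF-SC Tom. In b-KC the same sum was 4.75 to 7.77 FPKM in Co, 234 to 404 in GFP and 172 to 811 in Tom. Cd74 made up most of the sum in all groups but HF-SC Co, where its mean was 4.80 FPKM. Csf1r was at most 3.14 FPKM and the pan-leukocyte gene Ptprc (CD45) at most 0.946. The 7 neutrophil markers in the table summed to 1.48 to 1.99 FPKM in HF-SC Co, 9.21 to 10.1 in HF-SC GFP and 6.44 to 7.90 in HF-SC Tom, and to 1.86 to 2.10, 8.12 to 12.3 and 8.45 to 10.9 in the same order of b-KC groups. Among them Cxcr2 was at most 1.67 FPKM in HF-SC Co and at least 4.23 in every HF-SC library of DKO* mice. Csf3r was at most 0.367 FPKM in any library. Retnlg and Mpo were listed at 0 in all HF-SC Co libraries, and Mpo also in all HF-SC Tom libraries. Ngp was at most 0.0983 and Camp at most 0.298 FPKM in any HF-SC library. Of the 7 markers, 3 in HF-SC GFP and 2 in HF-SC Tom were above Co in every library. The part of the macrophage and neutrophil markers in the Mmp12 and Mmp9 levels was not tested.

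**Figure D2:**
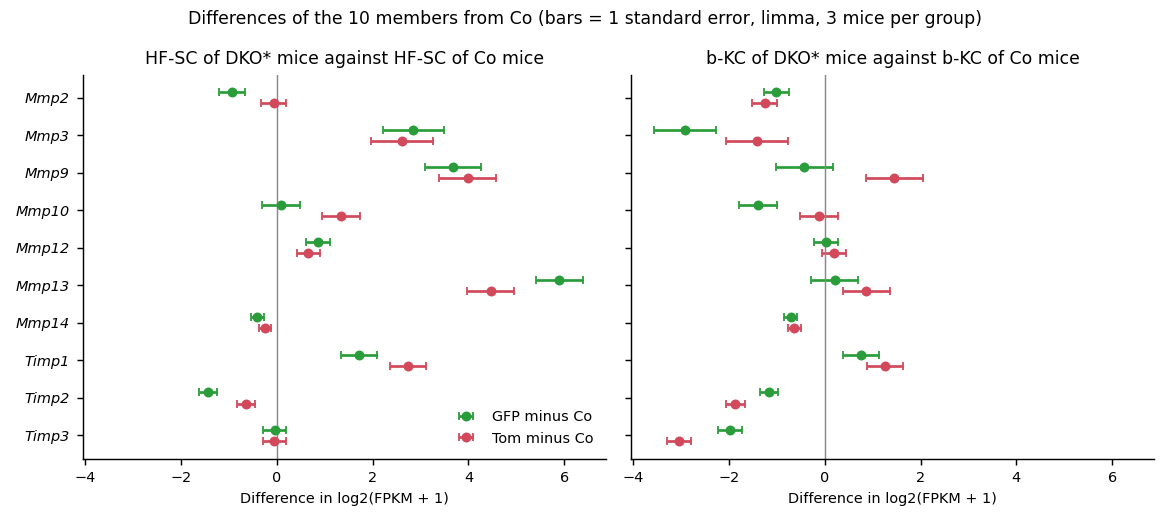
Difference from Co in log2(FPKM + 1) on the horizontal axis for the 10 genes in HF-SC (left) and b-KC (right), with GFP in green, Tom in red and bars of 1 standard error from limma. Mmp3, Mmp9 and Mmp13 lie to the right of 0 in HF-SC, and Mmp3, Timp2 and Timp3 lie to the left of 0 in b-KC GFP.

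Among the inhibitors, Timp1, the inducible family member, was higher in all 4 DKO* groups than in Co. Control HF-SC held 1.48, 0.422 and 0.184 FPKM, mutant HF-SC 3.58, 5.53 and 3.89, and non-mutant HF-SC 13.7, 14.8 and 4.37. Both stem cell fractions were above Co without overlap, at ratios of means of 6.22 and 15.7, and without mouse 810 these were 14.3 and 36.1. Control b-KC held 0.436, 0.0992 and 0.440 FPKM, mutant b-KC 1.25, 1.80 and 0.742, and non-mutant b-KC 2.44, 3.14 and 1.14, again above Co in every library. The log2 differences from Co were 1.71 and 2.74 in HF-SC GFP and Tom and 0.76 and 1.25 in b-KC GFP and Tom (SE 0.38 each). Timp1 lies inside Syn1, a gene on the opposite strand that was at most 0.0617 FPKM in any library.

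Timp2, the inhibitor that also takes part in Mmp2 activation, had the highest mean of the 10 genes in HF-SC Co and a much lower level in b-KC. HF-SC Co had 239.9, 261 and 264 FPKM, HF-SC GFP 73.3, 104 and 108 and HF-SC Tom 155, 213 and 131. The 3 stem cell groups did not overlap, and the mutant cells were lowest, with log2 differences from Co of -1.43 in GFP and -0.64 in Tom (SE 0.19 each). Control b-KC held 12.0, 14.3 and 13.6 FPKM, mutant b-KC 6.04, 6.12 and 4.13, and non-mutant b-KC 3.09, 3.40 and 2.32. Here the non-mutant cells were lowest, with log2 differences of -1.16 in GFP and -1.87 in Tom (SE 0.19 each), and no group overlapped its neighbour. Mean Timp2 in HF-SC Co was 19.2 times that in b-KC Co. The order of the GFP and Tom fractions was therefore reversed between the cell types, with GFP below Tom in HF-SC by -0.79 and above it in b-KC by 0.70 on the log2 scale (SE 0.19 each). Neither of these differences had a limma adjusted p under 0.01 in the main fit. The fibroblast and endothelial sums given above were also higher in HF-SC Co than in b-KC Co, and their part in the Timp2 difference was not tested. Nor was that of the bulge markers, which were lower in the DKO* fractions as Timp2 was.

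Timp3, the inhibitor that binds to the matrix, had similar means in the 3 HF-SC groups and was low in b-KC of DKO* mice. Control HF-SC held 48.2, 60.0 and 39.6 FPKM, mutant HF-SC 37.1, 53.0 and 52.6, and non-mutant HF-SC 41.7, 66.9 and 36.7, and the 3 groups overlapped. Control b-KC held 40.2, 47.1 and 42.5 FPKM, mutant b-KC 7.53, 9.49 and 14.8, and non-mutant b-KC 3.65, 4.38 and 5.17. None of the 3 b-KC groups overlapped another, and Co exceeded GFP by a ratio of 4.07 and Tom by a ratio of 9.83. The log2 differences from Co were -1.98 and -3.04 in b-KC GFP and Tom and -0.05 in each stem cell fraction (SE 0.24 each). Timp3 lies inside Syn3, a gene on the opposite strand that was at most 0.997 FPKM.

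Summed over the members, transcript levels of proteases and inhibitors had a different balance in each cell type. The 7 Mmps summed to 143 ± 16.8 FPKM in control, 265 ± 33.3 in mutant and 282 ± 143 in non-mutant HF-SC (SD, n = 3 each), and to 265 ± 55.8, 88.9 ± 10.8 and 139 ± 55.0 FPKM in the same order of b-KC groups. The 3 Timps summed to 305 ± 16.1, 147 ± 28.8 and 226 ± 62.8 FPKM in HF-SC and to 56.9 ± 4.44, 17.3 ± 2.44 and 9.57 ± 1.20 FPKM in b-KC. The Mmp sum divided by the Timp sum was 0.553, 0.441 and 0.418 in HF-SC Co and 1.99, 1.71 and 1.76 in HF-SC GFP, which did not overlap. HF-SC Tom had ratios of 0.964, 0.666 and 2.59, all above Co, with the library of mouse 817 far from the other 2. In b-KC the ratio was 4.07, 5.29 and 4.54 in Co and 5.41, 4.93 and 5.13 in GFP, which overlapped, and both sums were lower in the mutant cells. The b-KC Tom libraries had ratios of 10.7, 10.7 and 23.3, above all others. These ratios compare transcript levels and say nothing of protein or activity.

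**Figure D3:**
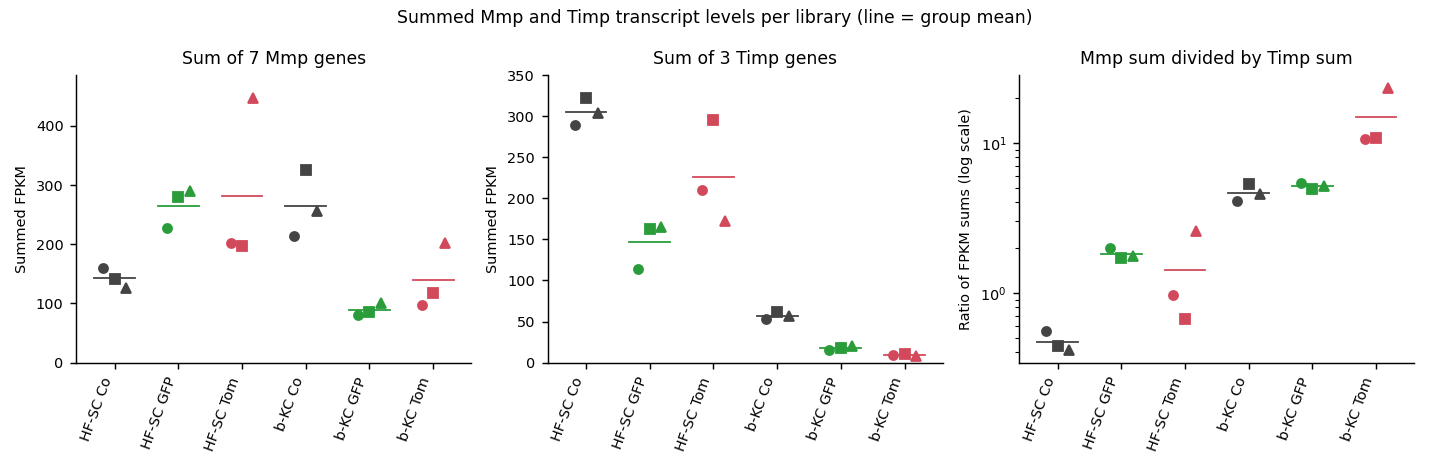
Summed FPKM of the 7 Mmp genes (left), summed FPKM of the 3 Timp genes (middle) and the first sum divided by the second on a log axis (right), with 1 symbol per mouse as in the plot of single levels and a line at the group mean. The ratio lies between 0.418 and 0.553 in HF-SC Co, between 1.71 and 1.99 in HF-SC GFP and between 10.7 and 23.3 in b-KC Tom.

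A gene was called changed when its Benjamini-Hochberg adjusted p from limma was under 0.01 over the 12751 genes tested. In HF-SC GFP against Co, 4 of the 9 tested members were called higher (Mmp3, Mmp9, Mmp13 and Timp1) and 1 lower (Timp2), where 13.0% of all genes tested were called higher and 12.3% lower. Mmp2 was called lower as well after rescaling and without mouse 817. In HF-SC Tom Mmp3, Mmp9, Mmp13 and Timp1 were again the 4 called higher and 0 were called lower, where 15.7% and 13.9% of all genes were. Mmp3 lost its call with the 2 groups alone and without mouse 810, 814 or 828. Timp2 was called lower after rescaling and without mouse 815. In b-KC GFP 0 were called higher and 5 lower (Mmp2, Mmp3, Mmp14, Timp2 and Timp3), beside 12.5% and 12.0% of all genes. Mmp10 was called lower as well with a pseudocount of 0.1, with the 2 groups alone and without mouse 817. Timp1 was called higher without mouse 817, and Mmp2 lost its call without the filter. In b-KC Tom 0 were called higher and 4 lower (Mmp2, Mmp14, Timp2 and Timp3), beside 15.4% and 15.3%. Timp1 was called higher there as well with the random block for the mouse, with a pseudocount of 0.1 and with the 2 groups alone, without mouse 817 the counts were 2 (Mmp9 and Timp1) and 5 (Mmp3 added), and Mmp2 lost its call without mouse 814 and Mmp14 without 815 or 828. In HF-SC GFP against HF-SC Tom 0 were called in either direction, beside 0.902% and 4.09%. A random block for the mouse and rescaling each added Timp2 as lower, a fixed block gave 0, and without mouse 817 there were 1 higher (Mmp13) and 3 lower (Mmp2, Timp1 and Timp2). In b-KC GFP against b-KC Tom 0 members were called in either direction in the main fit. The random block added Timp3 as higher there, and no share of all genes was worked out for this comparison. Between HF-SC and b-KC, 4 members had a GFP change called higher in HF-SC (Mmp3, Mmp9, Mmp13 and Timp3) and 0 lower, beside 3.32% and 1.89% of all genes. For the Tom changes 4 were called higher (Mmp3, Mmp13, Timp2 and Timp3) and 0 lower, beside 5.93% and 2.12%. Timp2 and Timp3 did not rise in HF-SC. Their differences from Co were -0.64 and -0.05 in HF-SC Tom, and that of Timp3 was -0.05 in HF-SC GFP. The members were chosen with these contrasts known and the GFP and Tom comparisons share their Co libraries, so the counts are a description only. Shares of all genes are those of the main fit, and none was worked out for the alternatives. Leaving out mouse 815 reduced the calls to 2 higher in HF-SC GFP (Mmp9 and Mmp13) and to 2 lower in b-KC GFP (Timp2 and Timp3), as did leaving out mouse 828, and without mouse 814 they were 2 and 3. Without mouse 810 they were 3 (Mmp3 lost) and 4 (Mmp2 lost), and without 825 they were 3 (Timp1 lost) and 3 (Mmp2 and Mmp3 lost). For the GFP changes the 4 calls became 1 (Mmp13) without mouse 814 or 815 and 2 (Mmp3 and Mmp13) without 810 or 828, and for the Tom changes they became 1 (Timp3) without 810, 814 or 828, 2 without 815 or 825 and 6 without 817.

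The other genes of the pathway came from 4 lists with 78 genes, 41 of which passed the filter, and these were tested. The lists too were chosen with earlier results of these data known, so their counts, shares and p-values are descriptive. In HF-SC GFP 13 of the 41 were called higher and 5 lower (31.7% and 12.2%, beside 13.0% and 12.3% of all genes), and in HF-SC Tom 17 higher and 3 lower (41.5% and 7.32%, beside 15.7% and 13.9%). In b-KC GFP 5 were called higher and 5 lower (12.2% each, beside 12.5% and 12.0%), and in b-KC Tom 4 and 4 (9.76% each, beside 15.4% and 15.3%), so the b-KC shares were near or below those of all genes. The counts moved when single mice were left out. The share of all genes called was worked out for the main fit only. A moved count, here and below, can therefore not be told from a move over all genes. The total in b-KC GFP was 23 without mouse 817, 6 without 814 and 4 without 815 or 828, that in b-KC Tom was 18 without 817, 5 without 828 and 4 without 815, and that in HF-SC Tom was 31 without 817. The median log2 difference of the 41 genes was 0.18 for mutant and 0.70 for non-mutant HF-SC and -0.18 for mutant and -0.10 for non-mutant b-KC, beside -0.05, -0.04, -0.03 and -0.02 over all genes tested.

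Of the 18 further family genes, 6 passed the filter (Mmp1b, Mmp11, Mmp15, Mmp17, Mmp28 and Reck). In HF-SC GFP 2 of these 6 were called higher and 2 lower, beside 13.0% and 12.3% of all genes. Mmp1b, a collagenase-like gene of the chromosome 9 cluster, rose from 0.0623 ± 0.0329 FPKM in HF-SC Co to 2.39 ± 0.880 in HF-SC GFP (SD, n = 3; log2 difference 1.64, SE 0.32, limma adjusted p = 8.41e-04) and to 2.58 ± 1.98 in HF-SC Tom (1.62, SE 0.32, limma adjusted p = 7.83e-04). Its neighbour Mmp1a, listed at 0 in every HF-SC Co library, had 0.601 ± 0.239 and 0.545 ± 0.177 FPKM in these fractions. Reads that match both genes may be split between them. Mmp1b also overlaps Mmp12 on the opposite strand, and reads of the overlap cannot be assigned to either. Mmp28 (epilysin) rose to 1.07 ± 0.357 FPKM in HF-SC GFP from 0.156 ± 0.0408 in Co (log2 difference 0.83, SE 0.22, limma adjusted p = 0.00840) and to 1.58 ± 0.146 in HF-SC Tom (1.16, SE 0.22, limma adjusted p = 6.61e-04). In the other direction, Mmp11 (stromelysin-3) fell from 8.34 ± 0.359 FPKM in HF-SC Co to 3.73 ± 0.750 in GFP (log2 difference -0.99, SE 0.12, limma adjusted p = 1.44e-05) and 2.90 ± 0.207 in Tom (-1.26, SE 0.12, limma adjusted p = 1.12e-06). Mmp17, a membrane-anchored Mmp, fell from 2.31 ± 0.398 FPKM to 0.497 ± 0.121 in GFP (-1.14, SE 0.15, limma adjusted p = 2.08e-05) and 0.607 ± 0.358 in Tom (-1.06, SE 0.15, limma adjusted p = 3.30e-05).

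In HF-SC Tom, Mmp15, a membrane-bound Mmp, also rose from 1.32 ± 0.0198 to 3.38 ± 0.668 FPKM (SD, n = 3; log2 difference 0.91, SE 0.21, limma adjusted p = 0.00232), and Reck, a membrane-anchored Mmp inhibitor, rose from 0.715 ± 0.144 to 1.89 ± 0.633 FPKM (0.73, SE 0.14, limma adjusted p = 4.85e-04). Reck was 0.668 ± 0.119 FPKM in HF-SC GFP, below Tom by -0.77 (SE 0.14, limma adjusted p = 0.00124). In b-KC the 1 call among the 6 family genes was Mmp15, lower in GFP at 2.72 ± 1.00 against 5.32 ± 1.41 FPKM in Co (-0.77, SE 0.21, limma adjusted p = 0.00794), with overlapping libraries. Of all genes tested, 12.0% were called lower in b-KC GFP. The calls of Mmp28 in HF-SC GFP and of Mmp15 in b-KC GFP were lost without the filter and without mouse 810, 814, 815 or 828, the former also without 825 and the latter also with the 2 groups alone. Mmp15 in HF-SC Tom lost its call without mouse 815 or 828, Reck in HF-SC Tom without 815 or with the 2 groups alone, and Mmp1b in HF-SC Tom with the 2 groups alone. The endothelial marker sum was highest in HF-SC Tom, where Mmp15 and Reck were highest among the HF-SC groups, and its part in them was not tested.

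The plasminogen system supplies plasmin, which activates Mmp precursors. Of the 10 genes on this list 6 passed the filter, among them F3, which belongs to blood coagulation and not to this system. Plau (urokinase) rose from 0.213 ± 0.0415 FPKM in HF-SC Co to 1.64 ± 0.562 in GFP (SD, n = 3; log2 difference 1.10, SE 0.18, limma adjusted p = 2.46e-04) and 2.16 ± 0.397 in Tom (1.37, SE 0.18, limma adjusted p = 2.66e-05). Plaur, its receptor, rose from 1.72 ± 1.02 to 17.7 ± 3.29 FPKM in HF-SC Tom (2.84, SE 0.29, limma adjusted p = 2.20e-06) and was 4.05 ± 1.40 in HF-SC GFP, below Tom by -1.92 (SE 0.29, limma adjusted p = 3.27e-04). F3 (tissue factor) rose in HF-SC GFP and Tom to 36.1 ± 18.5 and 31.9 ± 6.58 FPKM from 12.0 ± 6.19, with overlapping libraries in GFP (1.45 and 1.42, SE 0.40 each, limma adjusted p = 0.00990 and 0.00983), and Plat, the tissue-type activator, fell from 25.8 ± 2.31 to 13.3 ± 1.45 FPKM in HF-SC GFP (-0.91, SE 0.17, limma adjusted p = 7.08e-04). In b-KC, Serpine2, an inhibitor of plasminogen activators, rose from 1.67 ± 0.226 to 8.51 ± 4.77 FPKM in GFP (1.73, SE 0.31, limma adjusted p = 5.61e-04), and Plaur rose from 1.03 ± 0.499 to 3.64 ± 0.981 FPKM in Tom (1.20, SE 0.29, limma adjusted p = 0.00374). Both F3 calls were lost without the filter, with the 2 groups alone, without the trend, after rescaling and without mouse 810, 814, 815 or 828, and the Plaur call in b-KC Tom without mouse 810, 815, 817 or 828.

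Among 28 ADAM and ADAMTS genes, which encode related metalloproteases that shed surface proteins or cut proteoglycans, 12 passed the filter. Adam8 rose from 2.17 ± 0.0574 FPKM in HF-SC Co to 16.6 ± 1.35 in GFP (SD, n = 3; log2 difference 2.47, SE 0.26, limma adjusted p = 3.30e-06) and 18.9 ± 9.03 in Tom (2.56, SE 0.26, limma adjusted p = 1.87e-06), while in b-KC it stood at 29.2 ± 6.05 in Co, 17.3 ± 5.60 in GFP and 43.9 ± 8.80 in Tom. Adam10 (a sheddase of Notch and cadherins) rose from 20.5 ± 2.26 to 41.2 ± 1.44 FPKM in HF-SC GFP (0.98, SE 0.19, limma adjusted p = 7.29e-04) and 55.5 ± 11.9 in HF-SC Tom (1.38, SE 0.19, limma adjusted p = 2.97e-05). Adamts4 and Adamts9, which cut aggrecan and versican, rose in HF-SC Tom from 1.89 ± 0.956 to 13.9 ± 4.70 and from 0.779 ± 0.167 to 4.59 ± 1.17 FPKM (2.36, SE 0.22, and 1.63, SE 0.16, limma adjusted p = 9.51e-07 and 1.47e-06). In HF-SC GFP Adamts4 and Adamts9 were at 0.976 ± 0.293 and 0.280 ± 0.0311 FPKM, below Tom by -2.87 and -2.11 (SE 0.22 and 0.16, limma adjusted p = 3.14e-07 and 2.77e-07). The part of the endothelial marker sum, which was also highest in HF-SC Tom, was not tested. Adamts14, which processes collagen precursors, fell in b-KC from 12.1 ± 1.89 FPKM in Co to 1.21 ± 1.19 in GFP and 1.18 ± 1.36 in Tom (-2.69 and -2.75, SE 0.39 each, limma adjusted p = 1.25e-04 and 5.96e-05). Adamts10 fell in HF-SC GFP by 1.05 (SE 0.26) and Adamts9 in b-KC Tom by 0.60 (SE 0.16) on the log2 scale (limma adjusted p = 0.00500 and 0.00733), and both calls were lost without mouse 814, 815, 825 or 828, the former also without 810 and the latter also with the 2 groups alone.

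Of 22 activators, partners and other matrix proteases 17 passed the filter. Lcn2 (lipocalin-2), which binds the Mmp9 protein, had the largest log2 difference of the list in each DKO* group, at 0.895 ± 0.346 FPKM in HF-SC Co against 515 ± 255 in GFP and 195 ± 106 in Tom, and 3.79 ± 1.89 in b-KC Co against 1327 ± 836 in GFP and 391 ± 184 in Tom (SD, n = 3). The log2 differences were 7.98, 6.55, 7.89 and 6.28 (SE 0.58 each, limma adjusted p = 1.09e-07, 4.91e-07, 5.17e-07 and 1.57e-06). Cav1 (caveolin-1) fell in all 4, from 530.3 ± 38.8 FPKM in HF-SC Co to 154 ± 18.998 in GFP and 241 ± 68.4 in Tom and from 186 ± 22.1 in b-KC Co to 80.4 ± 17.7 in GFP and 83.3 ± 18.1 in Tom (log2 differences -1.78, -1.18, -1.21 and -1.16, SE 0.22 each, limma adjusted p = 1.20e-05, 4.19e-04, 5.62e-04 and 5.26e-04). Cd44, a receptor for hyaluronan that docks Mmp9 and Mmp14, rose in HF-SC from 32.8 ± 3.48 FPKM to 84.1 ± 5.60 in GFP and 54.3 ± 10.6 in Tom (1.33 and 0.70, SE 0.14 each, limma adjusted p = 2.77e-06 and 8.24e-04). It rose in b-KC from 53.2 ± 7.07 to 87.1 ± 5.87 FPKM in GFP and 90.3 ± 4.21 in Tom (0.71 and 0.76, SE 0.14 each, limma adjusted p = 0.00113 and 4.70e-04). St14 (matriptase) rose in HF-SC GFP from 14.0 ± 2.17 to 30.2 ± 2.29 FPKM (1.06, SE 0.14, limma adjusted p = 2.83e-05) and in b-KC GFP from 26.4 ± 1.17 to 43.2 ± 1.33 FPKM (0.69, SE 0.14, limma adjusted p = 0.00147). Ctsb, a cathepsin, rose in b-KC from 121 ± 2.54 FPKM to 179.8 ± 25.5 in GFP and 196 ± 9.68 in Tom (0.56 and 0.69, SE 0.12 each, limma adjusted p = 0.00218 and 3.18e-04). Lrp1, an endocytic receptor for Mmp9 and Mmp13, fell in b-KC from 9.07 ± 0.936 to 3.88 ± 1.08 FPKM in GFP and 4.18 ± 0.618 in Tom (-1.06 and -0.96, SE 0.22 each, limma adjusted p = 0.00147 and 0.00218), and the protease Htra1 fell in b-KC GFP from 91.7 ± 4.34 to 53.4 ± 8.95 FPKM (-0.78, SE 0.19, limma adjusted p = 0.00421).

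In HF-SC GFP, Hpse (heparanase) and the cathepsin Ctss rose by log2 differences of 1.72 (SE 0.38) and 1.60 (SE 0.39, limma adjusted p = 0.00240 and 0.00430), and Ctss rose in HF-SC Tom by 1.43 (SE 0.39, limma adjusted p = 0.00791). Rhbdf2, which escorts Adam17 to the cell surface, rose from 7.35 ± 0.818 FPKM to 20.4 ± 4.64 in HF-SC GFP and 13.0 ± 2.09 in HF-SC Tom (1.34 and 0.74, SE 0.17 each, limma adjusted p = 2.28e-05 and 0.00287). The calls of Hpse and Ctss were each lost without mouse 810, 815, 825 or 828 (Hpse also without 814, Ctss in GFP also with the 2 groups alone and in Tom also without the filter), and that of Rhbdf2 in Tom without 810 or 828 and with the 2 groups alone, as were those of Cav1 and Cd44 in HF-SC Tom with the 2 groups alone. In b-KC, Cd44, St14 and Lrp1 in GFP lost their calls without mouse 815 or 828 (Lrp1 also without 814), Htra1 without 810, 814, 815, 825 or 828, Ctsb in GFP without 810, 814, 815, 825 or 828 and with the 2 groups alone, Cd44 and Ctsb in Tom without 815 and Lrp1 in Tom without 828. Lcn2 kept its call under all 12 alternatives in each of these 4 comparisons.

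**Figure D4:**
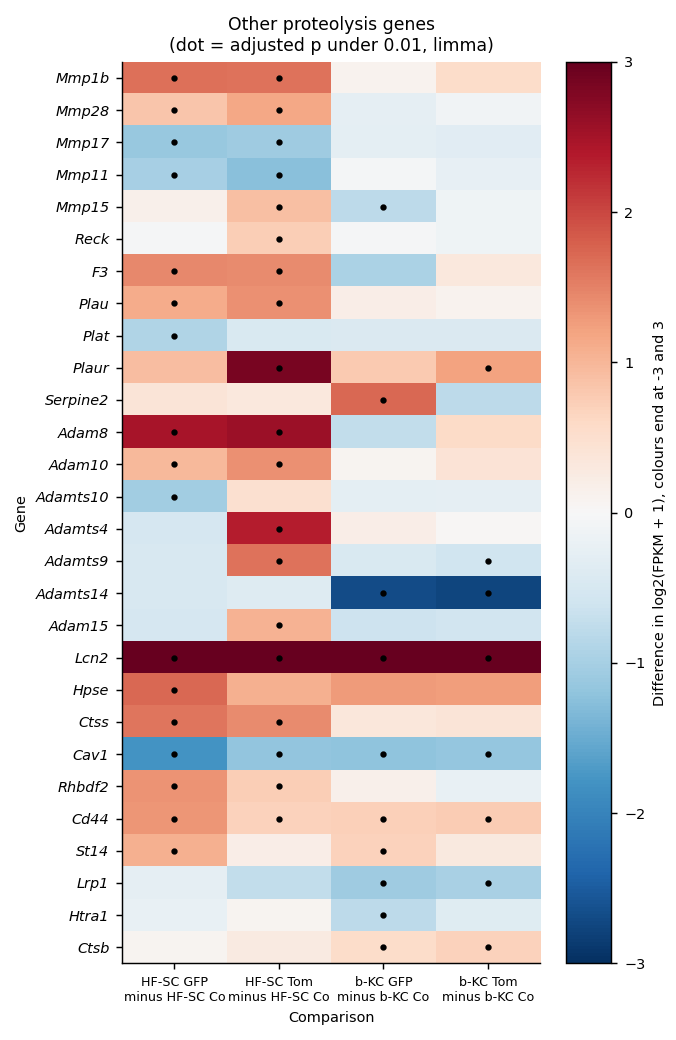
Difference from Co in log2(FPKM + 1), shown as colour from blue (lower) to red (higher) and ending at -3 and 3, for the listed proteolysis genes (rows) in the 4 comparisons with Co (columns). Dots mark an adjusted p under 0.01 (limma), which Lcn2 and Cav1 have in all 4 columns.

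The GFP and Tom fractions of HF-SC came from the same mice, so they were also compared with the mouse as a block. Of the 41 list genes 2 were called higher in GFP (Cd44 and St14) and 6 lower (Reck, Plaur, Adam15, Adamts4, Adamts9 and Adamts10) without the block, which is 4.88% and 14.6% beside 0.902% and 4.09% of all genes. Adam15 had 24.0 ± 6.25 FPKM in GFP and 70.1 ± 7.20 in Tom (SD, n = 3; log2 difference -1.54, SE 0.19, limma adjusted p = 3.08e-05), and St14 and Cd44 were higher in GFP by 0.88 and 0.64 (SE 0.14 each, limma adjusted p = 5.06e-04 and 0.00678). With the mouse as a fixed block, over these 6 libraries alone, 3 of the 41 were called (Adamts4, Adamts9 and Lcn2). The count was 14 without mouse 817 and 3 without 814 or 815.

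The changes of HF-SC and b-KC were compared by interaction terms. For GFP against Co, 3 of the 41 list genes differed between the cell types, namely Adam8 and Rhbdf2 higher and Mmp11 lower in HF-SC, and 10 did with the mouse as a random effect. The 2 higher and 1 lower are 4.88% and 2.44% of the list, beside 3.32% and 1.89% of all genes. For Tom against Co, the changes of Reck, Plau, Adam8, Adam15, Adamts4, Adamts9 and Adamts14 were higher and that of Mmp11 lower in HF-SC. A higher change need not be a rise, as that of Adamts14 was -0.40 in HF-SC and -2.75 in b-KC. Low levels of Adamts14 in HF-SC Co and of Mmp11 in b-KC Co limited how far they could fall there. These 8 genes are 17.1% of the list higher and 2.44% lower, beside 5.93% and 2.12% of all genes, and with the random block 15 differed. Without mouse 817 both counts were 19, and without mouse 814, 815 or 828 they were 1 to 4, as they were without 810. Leaving out mouse 825 gave 5 for Tom.

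Across the 18 libraries the patterns of the members were compared by Pearson's r of log2(FPKM + 1), with no test, since the libraries share mice and groups. Mmp9 and Mmp13 were most alike among the Mmps, with r = 0.866, and Timp1 had r = 0.773 with Mmp9 and 0.713 with Mmp13. Mmp3 had r = 0.698 with Mmp10, 0.531 with Mmp9 and 0.530 with Mmp13. Among the members that were lower in b-KC of DKO* mice, Timp3 had r = 0.829 with Timp2, 0.798 with Mmp2 and 0.742 with Mmp14, and Mmp2 had r = 0.791 with Mmp14 and 0.674 with Timp2. Outside the members, the highest r was with Pgf for Mmp13 (0.892), Slc4a7 for Mmp9 (0.894), Itga6 for Mmp3 (0.878), Zdhhc18 for Mmp10 (0.817), Sorbs3 for Mmp2 (0.946), Sik3 for Mmp14 (0.955), St3gal1 for Timp1 (0.947), Fxyd6 for Timp2 (0.986) and Tmf1 for Timp3 (0.957). Ptgs2, the inducible cyclooxygenase, was second for Mmp3 (0.850).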

How the data were processed

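RNA of 18 sorted libraries (SMART-Seq v4, Nextera XT, without strand) was sequenced as 51-base single-end reads. The authors used TopHat 2.0.10 and Bowtie 1.0.0 to align them to NCBI37/mm9, allowing 2 mismatches and 20 multihits, and deposited 1 FPKM per gene and library, estimated by Cufflinks (2.2.1 per the submitters' processing notes). Multihits make near-identical paralogs uncertain.

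The 12751 genes that reached 1 FPKM in 3 or more libraries were fitted with limma 3.58.1 in R 4.3.3 on log2(FPKM + 1), with 1 mean per group over all 18 libraries and a trended eBayes step, and p-values were adjusted by Benjamini and Hochberg within each comparison. Calls required an adjusted p under 0.01. The standard error of Mmp12 comes from the fit without the filter. The step was tested on simulated data. Other values were computed with Python 3.11.15, pandas 2.3.3 and numpy 2.4.6. Depth was read from low FPKM values of 7151 single-transcript genes, 75.9% to 79.6% of which lay within 0.1 of a whole read. Reads are not independent molecules, so floors of 3 reads cover counting error only. The members and lists were chosen with earlier results of these data known. Named genes are the members, the targeted genes, the family genes that passed the filter, the 3 called genes of each other list with the largest difference per direction and the 3 genes most like each member. Mouse numbers in the labels show that the 4 DKO* groups came from the same 3 animals. The deviations of GFP and Tom libraries of 1 mouse from their group means had r = 0.59, 0.08 and 0.43 in HF-SC and 0.24, 0.67 and 0.69 in b-KC, so the comparisons were also fitted with a random block for the mouse and, for GFP against Tom, with a fixed one. P-values rest on the spread between mice within groups, pooled over all 6 groups and moderated across genes. Every comparison of 2 groups therefore has the same standard error for a gene, whatever the spread in those groups. The main fit treats the 4 DKO* libraries of a mouse as independent. Alternatives were another pseudocount, no filter, only the groups compared, no trend, rescaled libraries, ratios of means, other thresholds, the block and each mouse left out. Proteins were not analysed here.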

Additional observations from a re-analysis of the deposited data

Results flagged for a closer look

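The following genes changed differently in HF-SC and b-KC. In GFP against Co, the change of Adam8 in HF-SC exceeded that in b-KC by 3.21 on the log2 scale (2.47 against -0.74, limma interaction, adjusted p = 1.30e-04), that of Rhbdf2 by 1.20 (1.34 against 0.15, limma adjusted p = 0.00485), and that of Mmp11 was lower by -0.92 (-0.99 against -0.07, limma adjusted p = 0.00268). Mmp3 was flagged by its libraries alone and not by a p-value. Every HF-SC GFP library was above, and every b-KC GFP library below, all libraries of its Co. Its changes differed by 5.77 (2.85 against -2.92). In Tom against Co, the change in HF-SC exceeded that in b-KC by 1.60 for Adam15, 1.98 for Adam8, 2.35 for Adamts14, 2.34 for Adamts4, 2.23 for Adamts9, 1.27 for Plau and 0.86 for Reck (limma adjusted p = 7.16e-04, 0.00165, 0.00828, 1.76e-04, 1.85e-05, 0.00347 and 0.00610). Mmp11 was lower there by -1.02 (-1.26 against -0.24, limma adjusted p = 8.31e-04). The change of Adamts14 was -0.40 in HF-SC and -2.75 in b-KC. The added 1 limits how far a low level can fall on this scale. Mmp11 averaged 0.298 FPKM in b-KC Co and Adamts14 0.975 FPKM in HF-SC Co. Neither could therefore fall there as far as it did in the other cell type. Adam8 in GFP and Adamts4 and Adamts9 in Tom kept their calls in every alternative run, and the other tested differences lost theirs in at least 1, among them the fit without mouse 815. Groups of 3 are too small for the rule on single outlying libraries. No explanation was weighed.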

How the results depend on the processing

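The counts of list genes called depended mostly on the fold limit and on single mice. No share of all genes was worked out in these settings, so such a move is not shown to be particular to the list. With a log2 difference of at least 2 required as well, 2 were called in mutant HF-SC (18 without it), 4 in non-mutant HF-SC (20), 2 in mutant b-KC (10), 2 in non-mutant b-KC (8), 2 in HF-SC GFP against Tom (8), 1 for the GFP changes (3) and 3 for the Tom changes (8). At an adjusted p under 0.05 there were 21 in b-KC GFP, 13 in b-KC Tom, 13 for the GFP changes and 15 for the Tom changes. Without the filter there were 15 in HF-SC GFP against Tom and 14 for the Tom changes. With the groups compared alone there were 2 in HF-SC GFP against Tom and 8 for the GFP changes, which gave 5 with a pseudocount of 0.1 and 5 after rescaling. With the replicate block there were 3 in HF-SC GFP against Tom (fixed), 10 for the GFP changes and 15 for the Tom changes (random), and no other count moved by over 1.5 times. Leaving out 1 mouse gave 12 to 21 in HF-SC GFP, 15 to 31 in HF-SC Tom, 4 to 23 in b-KC GFP, 4 to 18 in b-KC Tom, 3 to 14 in HF-SC GFP against Tom, 1 to 19 for the GFP changes and 2 to 19 for the Tom changes, and the cause was not tested. Of the values of members under an alternative, 996 moved by less than 1 SD and 57 by more. Of these 1053 values 27 turned in sign, in 12 comparisons of single members whose difference was not called and was at most 0.43 in size, and no called one did. Of those of list genes, 2149 stayed on their side of the threshold, 81 became called and 150 lost the call. Rescaling moved the median of all genes from -0.02 to -0.14 in b-KC Tom against Co, and by less in the other comparisons with Co, and turned the direction of no called value. Depth limits Mmp9, Mmp10 and Mmp12 in the groups near 3 reads.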
